A study of Mus musculus with 2 samples.

Results

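The 29 genes described here encode lysosomal hydrolases, their cofactors and proteins of the lysosomal membrane. They were chosen by gene symbol from a named list, without use of their measured levels but with earlier results of these data known. All 29 were present among the 31053 genes counted. By role they comprise 9 membrane proteins (Lamp1, Lamp2, Cd68, Scarb2, Laptm5, Laptm4a, Mcoln1, Cln3, Ctns), 7 proteins of lipid and sphingolipid handling, with progranulin (Grn) placed among them (Npc1, Npc2, Lipa, Psap, Asah1, Ppt1, Grn), 9 glycosidases and sulfatases (Hexa, Gusb, Glb1, Gla, Neu1, Man2b1, Sgsh, Galns, Arsb) and 4 phosphatases and proteases (Acp2, Acp5, Tpp1, Lgmn).

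The study profiled single liver leukocytes sorted for CD45, the pan-leukocyte surface protein, and CD11b, an integrin chain of myeloid and NK cells, from C57BL/6 mice. The 2 groups, with 1 library each, were Ctrl, livers of uninjured animals, and RES, livers after fibrosis had been resolved; each library came from 5 mice whose cells were pooled after a Histopaque gradient. The injury that caused the fibrosis, the time allowed for resolution, and the age and sex of the mice are not given in the sources used here. Because each group is 1 library of pooled mice, no value has a replicate error, no test between groups was made, and intervals cover counting error alone.

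Lysosomes digest material taken up by phagocytosis and endocytosis and material delivered by autophagy. Soluble hydrolases work in an acidic lumen kept by a proton pump, their products leave through membrane transporters, and the membrane is lined by heavily glycosylated proteins such as LAMP1 and LAMP2. In the liver, macrophages clear dying cells, red cells and, during regression of fibrosis, collagen fragments, and they are rich in these proteins. Many lysosomal genes carry in their promoters a short palindromic element, known as CLEAR, that is bound by the transcription factor TFEB and its relatives.

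The promoter sequences are shown first because the CLEAR element is known from many lysosomal genes, though not from every member. RefSeq promoter windows of 300 bases, from 250 bases before to 50 bases after the gene start (build GRCm38.p6), were found for 26 of the 29 genes. The core letters of the CLEAR element, TCACGTG, were searched on both strands, and where they overlapped their own reverse complement the run was counted as 1 site. They occurred in the windows of 7 of the 26 members, 26.9%, against 4.29% of the 27025 genes with a window. The 7 matching stretches follow, 5′ to 3′ on the strand of the gene, with the core letters or their reverse complement CACGTGA in capitals.
Lamp1, chr8:13159087-13159163, plus strand: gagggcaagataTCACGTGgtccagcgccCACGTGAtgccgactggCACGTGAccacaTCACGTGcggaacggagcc
Mcoln1, chr8:3500435-3500492, plus strand: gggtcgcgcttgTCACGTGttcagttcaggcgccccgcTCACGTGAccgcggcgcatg
Cln3, chr7:126583339-126583397, minus strand: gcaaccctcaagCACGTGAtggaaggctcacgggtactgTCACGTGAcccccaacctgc
Gla, chrX:134601181-134601245, minus strand: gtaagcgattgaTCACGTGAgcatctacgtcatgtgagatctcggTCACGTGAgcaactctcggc
Glb1, chr9:114401017-114401047, plus strand: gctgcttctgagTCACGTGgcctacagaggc
Sgsh, chr11:119355521-119355551, minus strand: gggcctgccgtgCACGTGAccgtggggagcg
Lgmn, chr12:102439124-102439154, minus strand: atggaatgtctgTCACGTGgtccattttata

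Lamp1 held 4 such sites, Mcoln1, Cln3 and Gla held 2 each, and Glb1, Sgsh and Lgmn held 1 each. The nearest site began between 16 bases (Lamp1) and 195 bases (Gla) before the RefSeq gene start. The 7 genes fall in 3 of the 4 role groups. For comparison, the AP-1 letters TGACTCA occurred in 5 of the 26 windows, 19.2% (Cd68, Glb1, Laptm4a, Neu1, Psap), against 5.95% of all genes. The letters TGACGTCA occurred in 1, that of Gusb, or 3.85%, against 2.03% of all genes. A match describes the letters in the window and is not a measurement of binding, and a window without a match says nothing about the factor.

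The Ctrl library held 3691 cell barcodes with 20379164 UMIs, and the RES library held 4278 barcodes with 34119806 UMIs. After filters on genes, mitochondrial RNA and doublets, 3337 and 4011 cells remained, with a median of 4506 and 6380 UMIs. Cells were placed in 7 classes by counts of marker genes, none of which is a member. Cells outside every class made up 17.1% of Ctrl and 9.75% of RES, besides 58 and 59 cells with both B and myeloid markers and a few with NK or B and macrophage markers. The libraries shared 56 barcodes. Among the kept cells with one of them were 8 of the 20 Ctrl cells and 25 of the 663 RES cells of the Arg1 class, and between 0 and 3 cells of each other class. Ptprc, which encodes CD45, was counted in every class of both libraries. Itgam, which encodes CD11b, was counted in all but the Ctrl B-like cells, where it had 0 UMIs in 41 cells, against 58.9 CPM (UMIs of a gene per 1000000 UMIs of its class) in RES. The neutrophil genes Ly6g, Camp and Ngp had 0 or 1 UMI in any class. In classical monocyte-like cells S100a8 stood at 2.60 CPM in Ctrl and 65.0 in RES and S100a9 at 0 and 3.70 CPM, and their part in the values of that class was not tested. The Kupffer cell markers Clec4f and Timd4 had 1 and 0 UMIs in the Ctrl and RES cells gated on C1q, so that class is called C1q macrophage-like and not Kupffer. Vsig4, Marco and Cd163 in it lay between 0 and 11.8 CPM.

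The NK-like class held 1509 Ctrl and 1470 RES cells, and the B-like class 41 and 45. Classical monocyte-like cells, gated on Ly6c2, Ccr2, Vcan and 3 further genes, numbered 442 and 590, and nonclassical monocyte-like cells, the patrolling type that carries Ace and Treml4, 319 and 532. C1q macrophage-like cells numbered 100 and 56, macrophage-like cells with 3 or more UMIs of Arg1 and Spp1 numbered 20 and 663, and conventional dendritic cell (DC)-like cells 270 and 195. The Arg1 and C1q classes are ranges along marker counts: 5 Ctrl and 12 RES cells of the C1q class carried 1 or 2 Arg1 or Spp1 UMIs, and 6 and 25 cells of the Arg1 class carried 3 to 5 of them. Levels below are CPM of the UMIs summed over the cells of a class. The assay counts transcript ends, so values rank classes within a gene and do not rank genes against each other.

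Summed over the 29 genes, the members took a far larger part of the RNA of mononuclear phagocytes than of lymphocytes. Their share of all UMIs in Ctrl was 1.07% in C1q macrophage-like cells, 0.912% in classical and 0.762% in nonclassical monocyte-like cells, 0.555% in DC-like cells, 0.220% in NK-like cells and 0.146% in B-like cells. The RES shares were 1.02%, 0.858%, 0.727%, 0.556%, 0.226% and 0.176% in the same order, with 0.828% in Arg1 macrophage-like cells. The order of the classes was therefore the same in both libraries. Single cells spread around these values: in Ctrl NK-like cells the middle 90% of cells ran from 0.0905% to 0.390%, and in Ctrl classical monocyte-like cells from 0.611% to 1.41%, so these 2 ranges did not overlap. The sum rested on few genes. Psap, Laptm5, Npc2 and Lamp1 together gave 53.7% to 71.3% of the members' UMIs in each class and library. In classical monocyte-like cells Psap alone gave 38.5% in Ctrl and 34.1% in RES, whereas in NK-like cells Laptm5 gave 37.7% and 35.9% and Psap 7.95% and 8.87%.

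**Figure D1:**
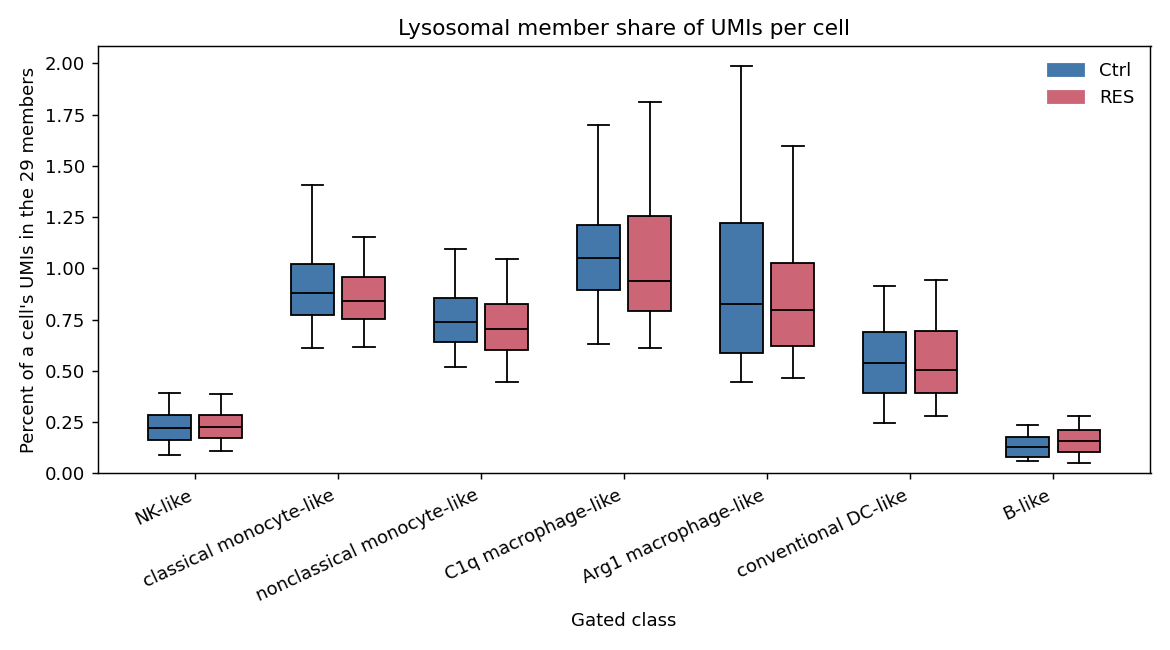
Share of each cell's UMIs that came from the 29 lysosomal genes, in percent, by cell class and library (boxes, quartiles; line, median; whiskers, 5th to 95th percentile of cells). Cells of 1 library are not replicates. Median cells lay at 0.221% (Ctrl) and 0.226% (RES) in the NK-like class and at 0.882% and 0.839% in the classical monocyte-like class.

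Between the libraries the summed level differed little outside the Arg1 class, where the log2 ratio was -0.37 (-0.45 to -0.29), and -0.23 without Psap and Laptm5, from 20 Ctrl cells. Elsewhere the log2 ratio of RES over Ctrl was 0.04 (95% interval 0.01 to 0.08) in NK-like cells, -0.09 (-0.11 to -0.07) in classical monocyte-like cells, -0.07 (-0.10 to -0.04) in nonclassical monocyte-like cells, -0.06 (-0.11 to -0.01) in C1q macrophage-like cells and 0.00 (-0.03 to 0.04) in DC-like cells. Without Psap and Laptm5 the same ratios were 0.07, 0.00, 0.03, -0.14 and 0.04. With those 2 genes left out, neither monocyte-like class showed a deficit in RES. Of the 2, Psap was lower in RES in classical and nonclassical cells (-0.27 and -0.36), while Laptm5 was slightly higher (0.06 and 0.13). B-like cells gave 0.27 (0.02 to 0.51) with them and 0.00 without them.

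Most members were highest in macrophage-like or monocyte-like cells. Over the 6 Ctrl classes other than Arg1, which had too few cells to rank, the highest level was in C1q macrophage-like cells for 18 of 29 members, in classical and in nonclassical monocyte-like cells for 4 each, and in NK-like, DC-like and B-like cells for 1 each. Over the 7 RES classes it was in Arg1 macrophage-like cells for 9, in C1q macrophage-like and nonclassical monocyte-like cells for 6 each, in classical monocyte-like cells for 5, and in NK-like, DC-like and B-like cells for 1 each. The B-like first place was held by Glb1 in Ctrl, from 3 UMIs, and by Galns in RES, from 4 UMIs, too few to rank. For 14 of the 29 the same class was highest in both libraries. The 9 members highest in the RES Arg1 class could not match, because that class was not ranked in Ctrl. Many of these first places were near ties: Lamp1 in Ctrl stood at 795 CPM in C1q macrophage-like and 749 CPM in classical monocyte-like cells, and in RES at 784 and 799 CPM. Lgmn, an asparagine-specific endopeptidase of antigen-processing and phagocytic cells, was less evenly spread, at 417 CPM in the Ctrl C1q class against 120 CPM in the next class, nonclassical monocyte-like cells.

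**Figure D2:**
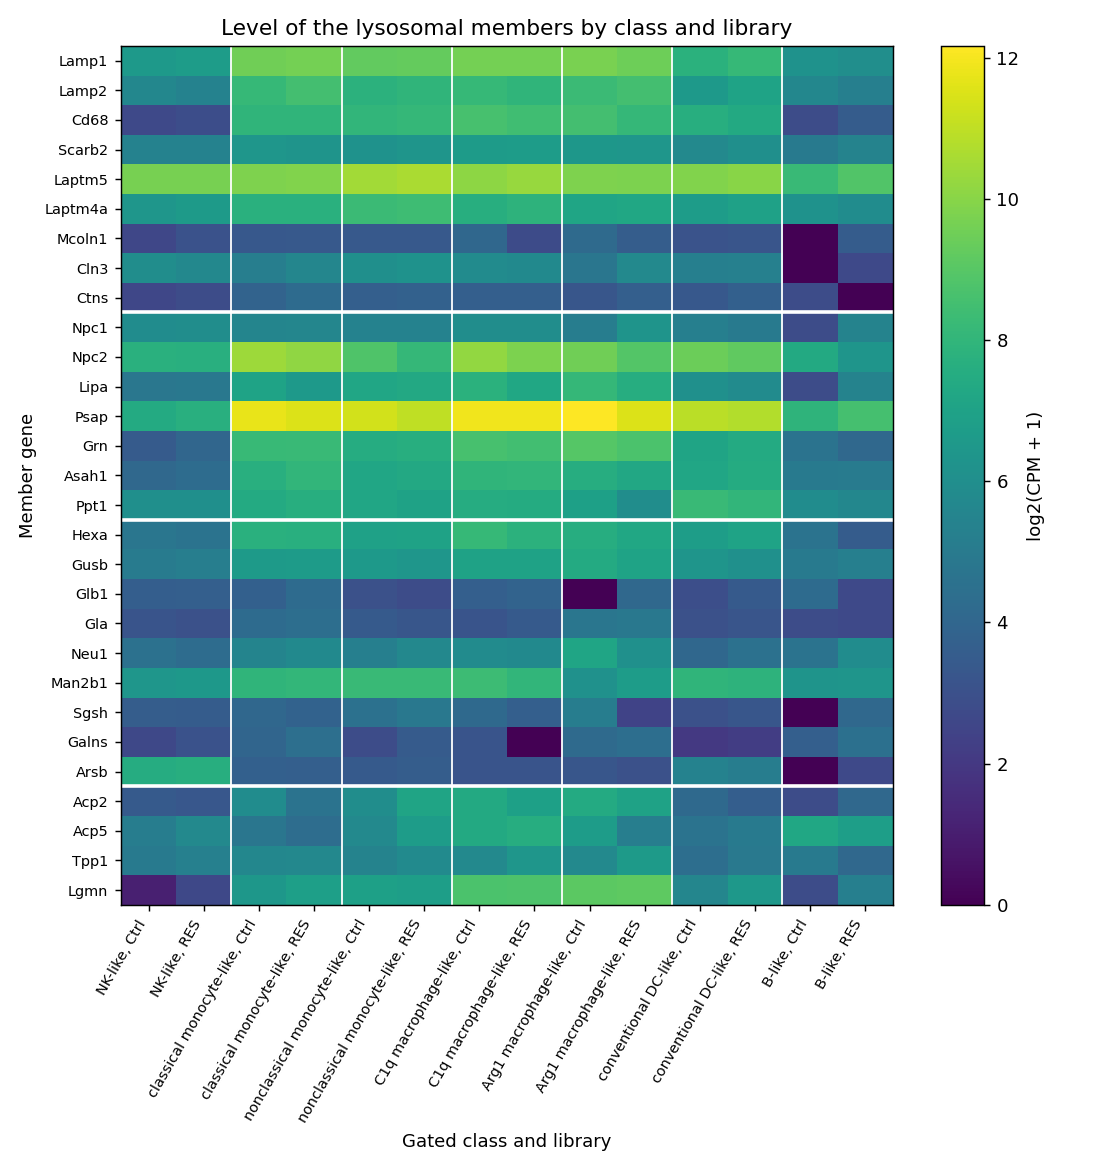
Levels of the 29 genes (rows, ordered by role) as log2(CPM + 1) of summed UMIs in 7 cell classes, Ctrl and RES side by side (columns). Bright colours mark high levels. Most rows are brightest in the macrophage-like and monocyte-like columns. Arsb is brightest in the NK-like columns, at 186 (Ctrl) and 195 CPM (RES).

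Arsb, arylsulfatase B, which removes sulfate from dermatan and chondroitin sulfate (GRCm38 chr13:93771630-93943016, plus strand), ran against the other members. NK-like cells held 186 CPM in Ctrl and 195 CPM in RES. DC-like cells came next, at 41.2 and 34.2 CPM, and both monocyte-like classes and the C1q class lay between 7.84 and 12.1 CPM. The log2 ratio of NK-like over classical monocyte-like cells was 3.93 (3.49 to 4.41) in Ctrl and 4.05 (3.71 to 4.41) in RES. With every cell thinned to 1000 UMIs, 18.4% of Ctrl and 16.7% of RES NK-like cells had an Arsb UMI, 4.44% and 4.10% of DC-like cells did, and 0 of 97 and 0 of 55 C1q macrophage-like cells did (exact upper limits 3.73% and 6.49%). Without thinning the NK-like shares were 45.3% and 54.5%.

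Droplets also hold free RNA, whose level in NK-like cells was gauged from macrophage genes that these cells do not make. The gates of NK-like and B-like cells allowed at most 4 UMIs of Lyz2 and Csf1r per cell. Lyz2 was therefore capped there and can understate free RNA. Lyz2, the macrophage lysozyme, stood in NK-like cells at 0.901% of its level in C1q macrophage-like cells in Ctrl and at 2.01% of its level in Arg1 macrophage-like cells in RES. C1qa, C1qb and C1qc together stood at 0.127% and 0.543% on the same basis, and Arg1 with Spp1 at 0.437% in RES. The NK-like gate capped these genes as well. Cd68 stood at 1.40% and 2.27% and Lgmn at 0.266% and 0.914%. Cd68 thus lay above and Lgmn below the capped Lyz2 levels, and both lay above the capped C1q levels. Psap stood higher, at 4.57% and 6.76%, and Arsb at 2345% and 2792%.

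Compared with classical monocyte-like cells of the same library, NK-like cells were at least 1.5-fold higher for 2 of the 29 members and lower for 22 in Ctrl, where 36.1% of all genes with 50 or more UMIs over the pair were higher and 20.6% lower. The 2 higher members were Arsb and Cln3, a membrane protein mutated in Batten disease (log2 ratio 0.73). The lowest were Lgmn (-6.28), Cd68, a sialomucin of macrophage late endosomes (-5.49), Grn (-4.81) and Psap (-4.33). In RES, 2 were higher (Arsb, and Acp5 at 1.42) and 21 lower, against 34.4% and 22% of all genes. The median member was lower in NK-like cells by a log2 of -1.45 in Ctrl and -1.52 in RES, while the median of all genes was 0.30 and 0.23. These ratios are of relative abundance within the RNA of a class, and NK-like cells had fewer UMIs per cell, with a median of 3280 in Ctrl against 7795.5 in classical monocyte-like cells.

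DC-like cells were intermediate. Against classical monocyte-like cells, 2 members were higher and 17 lower in each library; among all genes 13% were higher and 17.9% lower in Ctrl, and 12.7% and 18.3% in RES. Ppt1, which removes palmitate from proteins, was highest of all classes in DC-like cells, at 302 CPM in Ctrl and 260 in RES, and was higher than in classical monocyte-like cells by a log2 of 0.80 in Ctrl. Arsb was the other higher member in Ctrl (1.76), and Arsb (1.54) and Acp5 (0.71) were the 2 in RES. Lamp1 stood at 215 and 282 CPM in DC-like cells against 749 and 799 CPM in classical monocyte-like cells.

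C1q macrophage-like cells exceeded classical monocyte-like cells mainly in 3 genes of the phosphatase and protease group. In Ctrl, 6 of 27 members were higher and 2 lower, against 13.1% and 11.8% of all genes. Acp5, tartrate-resistant acid phosphatase, a marker of osteoclasts and activated macrophages (chr9:22126727-22135711, minus strand), stood at 165 against 26.6 CPM, a log2 ratio of 2.63. Lgmn (chr12:102394084-102439813, minus strand) stood at 417 against 85.9 CPM (2.28), and Acp2, lysosomal acid phosphatase, at 167 against 59.3 CPM (1.498). Lipa, the acid lipase that frees cholesterol and fatty acids from lipoproteins, followed with 0.73, and Cd68 and Cln3 with 0.67 each. In RES, 5 of 29 were higher and 4 lower, against 13.2% and 16.2% of all genes: Acp5 (3.33), Acp2 (2.33), Lgmn (1.93), Lipa (0.70) and Tpp1 (0.69) were higher. Acp5, Acp2, Lgmn and Lipa were thus higher in the C1q class in both libraries, and the abundant Lamp1 and Psap were within 1.5-fold of classical monocyte-like cells in both.

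Nonclassical monocyte-like cells had their own pattern. In Ctrl, 3 of 29 members were higher than in classical monocyte-like cells and 6 lower, against 15.6% and 13.4% of all genes. Higher were Acp5 (log2 ratio 0.94), Cln3 (0.83) and Laptm5 (0.70), the last a membrane protein of leukocyte lysosomes that sends antigen receptors to degradation. Npc2, the soluble carrier that hands cholesterol to NPC1, was lower, at 445 against 1347 CPM (-1.60), as were Hexa (-0.80) and Grn (-0.64), with Galns, Gla and Glb1. In RES, 7 were higher and 8 lower, against 20.1% and 14.5%. Acp2 (2.52) and Acp5 (2.43) led in RES, and Npc2 was again lower, at 276 against 1120 CPM (-2.02). In Ctrl, Acp2 did not separate the classes, at 61.2 against 59.3 CPM.

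The main comparison of the study, RES against Ctrl, was made within each class, and a member was called when it differed at least 1.5-fold with 50 or more UMIs over both libraries. In NK-like cells 0 of 28 members were called, against 4.19% of all genes. Lgmn had too few UMIs to be tested there, with 6 in Ctrl and 35 in RES (log2 ratio 2.25, 0.98 to 3.79). Of 29 members, 1 was called in classical monocyte-like cells, against 10.7% of all genes. In nonclassical monocyte-like cells 3 of 25 were called, against 9.75%; in C1q macrophage-like cells 1 of 22, against 16.4%; and in DC-like cells 2 of 24, against 10.6%. In the B-like class 27 members had under 50 UMIs and the other 2 were both called, against 13.7%. At this minimum of 50 UMIs the shares are low or near the background, except in the B-like class with 2 members. With a minimum of 200 UMIs the nonclassical share was above the background, at 3 of 22 members against 190 of 3799 genes. Classical monocyte-like cells then had 1 of 22 called, against 367 of 5405 genes, and DC-like cells 1 of 16, against 173 of 3387. NK-like cells had 0 of 19 and C1q macrophage-like cells 0 of 15. Values below are again for 50 or more UMIs. The median log2 ratio of the members tested was 0.06 in NK-like, 0.06 in classical, 0.10 in nonclassical, -0.02 in C1q and 0.19 in DC-like cells, beside -0.02, 0.03, 0.07, 0.01 and 0.02 for all genes.

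**Figure D3:**
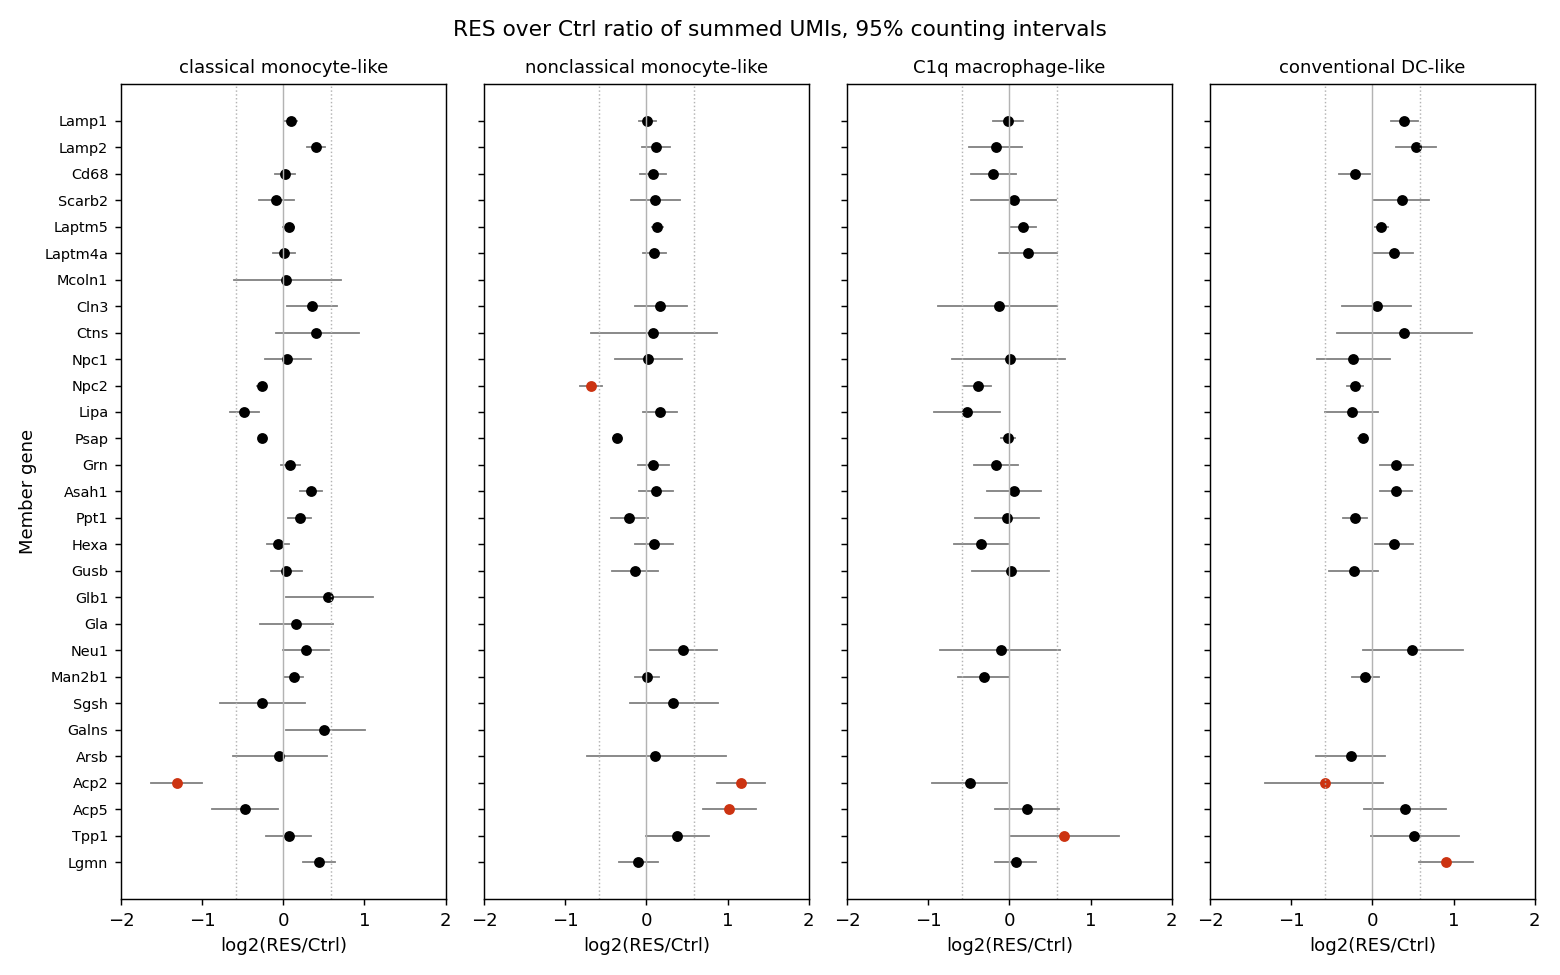
Log2 ratio of RES over Ctrl for each lysosomal gene with 50 or more UMIs, in 4 cell classes (points; bars, 95% intervals for counting error alone; red, at least 1.5-fold; dotted lines, 1.5-fold). Most genes lie inside the dotted lines; Acp2 lies at -1.32 in classical and at 1.16 in nonclassical monocyte-like cells.

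Of the 9 membrane proteins none with 50 UMIs was called in NK-like, classical, nonclassical, C1q or DC-like cells. In classical monocyte-like cells Lamp1 stood at 749 CPM in Ctrl and 799 in RES (log2 ratio 0.09, 0.02 to 0.16), Lamp2 at 279 and 368 CPM (0.40, 0.29 to 0.51) and Cd68 at 249 and 252 CPM (0.02, -0.10 to 0.14). Lamp2, a receptor for chaperone-mediated autophagy as well as a membrane lining, was the furthest apart of these 3, and it stayed within 1.5-fold. In DC-like cells Lamp1 (0.39) and Lamp2 (0.54, 92.0 to 133 CPM) were higher in RES, also within 1.5-fold. Scarb2, which carries glucocerebrosidase to lysosomes, stood at 83.3 and 78.4 CPM in classical and at 102 and 106 CPM in C1q macrophage-like cells. Laptm5 stood at 1443 and 1583 CPM in nonclassical monocyte-like cells, its highest class in both libraries, and Laptm4a at 314 and 336 CPM. Mcoln1, the lysosomal calcium channel TRPML1, and Ctns, the cystine exporter, were low in every class, at most 17.4 and 18.0 CPM.

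Among the lipid-handling members Npc2 (chr12:84754562-84773152, minus strand) was the 1 called in the NK-like and myeloid classes, Arg1 apart. In nonclassical monocyte-like cells it stood at 445 CPM in Ctrl and at 276 CPM in RES, a log2 ratio of -0.69 (-0.82 to -0.55). It was lower in RES within 1.5-fold in classical monocyte-like cells (1347 and 1120 CPM, -0.27), C1q macrophage-like cells (1156 and 883 CPM, -0.39) and DC-like cells (688 and 593 CPM, -0.21), and close to level in NK-like cells (207 and 206 CPM). With cells thinned to 2000 UMIs before gating, the ratio in nonclassical monocyte-like cells was -0.49 and the call was lost. Npc1, the membrane partner of Npc2, stood at 41.1 and 41.7 CPM in nonclassical and at 45.98 and 47.6 CPM in classical monocyte-like cells.

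Psap, the precursor of the saposins that help sphingolipid hydrolases (chr10:60277627-60302597, plus strand), was the most counted member in phagocytes. It stood at 3512 and 2922 CPM in classical monocyte-like cells (-0.27, -0.30 to -0.23), at 2616 and 2038 CPM in nonclassical ones (-0.36, -0.41 to -0.31), at 3820 and 3773 CPM in C1q macrophage-like cells and at 1888 and 1736 CPM in DC-like cells (-0.12). Its counting intervals exclude equality in both monocyte-like classes, while the differences are under 1.5-fold and have no replicate error beside them. Lipa was lower in RES classical monocyte-like cells (132 and 94.2 CPM, -0.48, -0.66 to -0.30) and C1q macrophage-like cells (219 and 153 CPM, -0.52), and stood at 144 and 162 CPM in nonclassical ones. Asah1, acid ceramidase, stood at 202 and 255 CPM in classical monocyte-like cells (0.34), Ppt1 at 174 and 200 CPM (0.20) and Grn at 289 and 307 CPM (0.09).

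Of the 9 glycosidases and sulfatases none was called in NK-like, classical, nonclassical, C1q or DC-like cells. Man2b1, the lysosomal alpha-mannosidase, stood at 246 and 268 CPM in classical and at 298 and 301 CPM in nonclassical monocyte-like cells. Hexa, the alpha subunit of beta-hexosaminidase, stood at 212 and 203 CPM in classical monocyte-like cells and at 286 and 225 CPM in C1q macrophage-like cells (-0.35, -0.68 to -0.01). Gusb, beta-glucuronidase, was close to level, at 98.0 and 100.4 CPM in classical monocyte-like cells and 128 and 129 CPM in C1q macrophage-like cells. Neu1, the sialidase, stood at 37.1 and 50.6 CPM in nonclassical monocyte-like cells (0.45, 0.04 to 0.87). Glb1, beta-galactosidase, was just inside the limit in classical monocyte-like cells, at 12.1 and 17.9 CPM (0.56, 0.03 to 1.11). Gla, Sgsh and Galns were low throughout, between 0 and 34.7 CPM, and each had under 50 UMIs over both libraries in the C1q, DC-like and B-like classes.

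The 4 phosphatases and proteases held all other calls in the myeloid classes, Arg1 apart. Lgmn was higher in RES DC-like cells, at 87.8 against 47.0 CPM (0.90, 0.57 to 1.24). The share of DC-like cells with an Lgmn UMI, thinned to 1000 UMIs, was 5.19% (2.86% to 8.55%) in Ctrl and 12.8% (8.47% to 18.3%) in RES, and 27.8% and 51.8% without thinning. In NK-like cells, which served as background, the thinned shares were 0.067% and 0.478%. Macrophage transcripts moved with this difference: in DC-like cells Arg1 stood at 1.55 CPM in Ctrl and 10.2 in RES, Spp1 at 3.88 and 10.98 CPM, C1qb at 1.17 and 6.10 CPM and Lyz2 at 1793 and 2404 CPM. The DC-like gate kept C1q under 4 and Arg1 with Spp1 under 3 UMIs per cell, so these levels were capped. The part of macrophage transcripts in the Lgmn result was not tested. In RES Arg1 macrophage-like cells Lgmn stood at 575 CPM, Arg1 at 7517 CPM and Spp1 at 2101 CPM. Lgmn was also higher in classical monocyte-like cells within 1.5-fold (85.9 and 116 CPM, 0.43) and level in C1q macrophage-like cells (417 and 441 CPM).

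Acp5 was higher in RES nonclassical monocyte-like cells, at 104 against 51.2 CPM (1.02, 0.69 to 1.35). In the same comparison it stood at 26.6 and 19.2 CPM in classical monocyte-like cells (-0.47), at 165 and 192 CPM in C1q macrophage-like cells (0.22) and at 35.04 and 51.3 CPM in NK-like cells (0.55, 0.29 to 0.81), all under 1.5-fold. Thinned to 1000 UMIs, 4.08% of Ctrl and 10.2% of RES nonclassical monocyte-like cells had an Acp5 UMI. Tpp1, a lysosomal peptidase that trims short peptides from protein ends (chr7:105744811-105752235, minus strand), was called in C1q macrophage-like cells and, besides them, in the Arg1 class alone, standing in the former at 51.4 and 82.3 CPM from 39 and 42 UMIs (0.68, 0.01 to 1.34). Its interval reaches almost to equality, and the call was lost with stricter gates (0.57) and without interferon-state cells (0.55); with cells thinned to 2000 UMIs it had under 50 UMIs. In DC-like cells Acp2 sat on the threshold, at 17.1 and 11.4 CPM from 44 and 28 UMIs (-0.59, -1.32 to 0.13), and its interval includes equality.

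Acp2 (chr2:91202885-91214098, plus strand) was the member that differed most between the libraries in monocyte-like cells, and in opposite directions in the 2 classes. In classical monocyte-like cells it stood at 59.3 CPM in Ctrl (205 UMIs) and at 23.8 CPM in RES (148 UMIs), a log2 ratio of -1.32 (-1.63 to -1.003). In nonclassical monocyte-like cells it stood at 61.2 CPM in Ctrl (122 UMIs) and at 137 CPM in RES (430 UMIs), a log2 ratio of 1.16 (0.87 to 1.46). The 2 classes were level in Ctrl and far apart in RES. Thinned to 1000 UMIs, the share of cells with an Acp2 UMI was 4.98% (3.15% to 7.44%) and 2.38% (1.31% to 3.96%) in classical cells, and 5.96% (3.62% to 9.15%) and 12.6% (9.91% to 15.7%) in nonclassical cells, beside 0.807% and 0.957% in NK-like cells. The unthinned shares were 25.1% and 18.0% in classical and 25.1% and 39.3% in nonclassical cells. In C1q macrophage-like cells Acp2 stood at 167 and 119 CPM (-0.49, -0.95 to -0.04).

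The share of cells in an interferon state also differed between the libraries. The state was read from 8 interferon-induced genes, and cells with 5 or more of their UMIs per 10000 were set apart. Such cells made up 31.9% of Ctrl and 7.12% of RES classical monocyte-like cells, where Acp2 was lower in RES, and 6.58% of Ctrl and 0.752% of RES nonclassical monocyte-like cells, where Acp2 was higher in RES. Among Ctrl classical monocyte-like cells, Acp2 stood at 102 CPM (84.6 to 122) in interferon-state cells and at 37.8 CPM (30.3 to 46.6) in the other 301 cells. In RES classical cells it stood at 42.0 and 22.6 CPM. Among Ctrl nonclassical cells it stood at 229 CPM (155 to 325) in 21 interferon-state cells, from 31 UMIs, and at 49.0 CPM in the others. In RES nonclassical cells only 4 were in the interferon state, with 1 Acp2 UMI. Among the cells under that limit the log2 ratio of RES over Ctrl was -0.74 in classical and 1.49 in nonclassical monocyte-like cells. With cells thinned to 2000 UMIs before gating it was -0.58 in classical cells, under 1.5-fold, and 1.71 in nonclassical cells. The direction was the same in each case, and the size in classical cells was smaller.

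Acp2 lies head to head with Nr1h3, which encodes the oxysterol-sensing nuclear receptor LXR alpha (chr2:91184061-91202834, minus strand). Their annotated starts are 51 bases apart, so the sequence between them is printed here, with 24 bases on each side. The 50 bases between the genes are in capitals.
Acp2 and Nr1h3, GRCm38.p6 chr2:91202811-91202908, plus strand: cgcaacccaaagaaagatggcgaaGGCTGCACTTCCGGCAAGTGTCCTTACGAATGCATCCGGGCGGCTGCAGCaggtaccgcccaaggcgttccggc

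Nr1h3, which is no member of the list, followed the same pattern. It stood at 26.0 CPM in Ctrl and at 8.53 CPM in RES classical monocyte-like cells (-1.61, -2.13 to -1.10), at 40.1 and 73.9 CPM in nonclassical ones (0.88, 0.51 to 1.27) and at 112 and 116 CPM in C1q macrophage-like cells (0.04). Both genes were thus lower in RES in classical cells and higher in RES in nonclassical cells, and they parted in C1q macrophage-like cells. Over the 11 class and library points outside B-like cells and the Ctrl Arg1 class, Spearman's rho between the 2 genes was 0.94 and Pearson's r 0.95. These are descriptions over points that share libraries, depth and macrophage identity. Ddb2 overlaps the far end of Acp2 by 2527 bases on the opposite strand and was at most 4.46 CPM in monocyte-like cells (1.16 and 1.61 CPM in classical cells), far below Acp2. Whether the authors' counting used strand is not given in the sources used here.

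**Figure D4:**
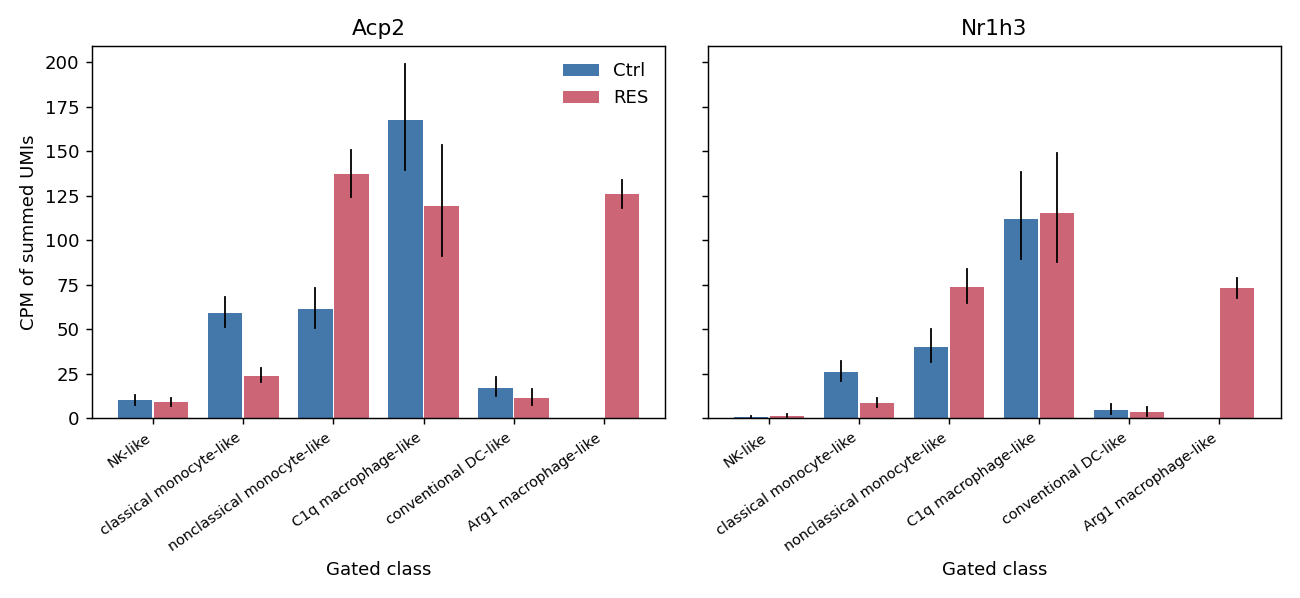
Levels of Acp2 and of its head-to-head neighbour Nr1h3 in CPM of summed UMIs, by class and library (bars; error bars, 95% Poisson intervals for counting error alone; the Ctrl Arg1 class of 20 cells is not drawn). Acp2 stands at 59.3 (Ctrl) and 23.8 CPM (RES) in classical and at 61.2 and 137 CPM in nonclassical monocyte-like cells, and Nr1h3 differs in the same directions there.

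In B-like cells the 2 members with 50 UMIs were Psap, at 241 CPM in Ctrl (40 UMIs) and at 380 CPM in RES (71 UMIs), a log2 ratio of 0.66 (0.08 to 1.25), and Laptm5, at 301 and 460 CPM (0.61, 0.09 to 1.15; chr4:130913125-130936141, plus strand). Lyz2 and Itgam were also higher in RES B-like cells, Lyz2 at 30.1 CPM in Ctrl and 112 in RES and Itgam at 0 and 58.9 CPM. For Lyz2 this was 0.326% of the C1q macrophage-like level in Ctrl and 2.17% of the Arg1 macrophage-like level in RES. Npc2, likewise far higher in myeloid classes, was lower in RES B-like cells, at 169 and 80.3 CPM. This rested on 28 and 15 UMIs, under the minimum (-1.07, -2.08 to -0.12). The B-like gate capped Lyz2 in each cell, and the part of myeloid RNA in these values was not tested. Psap stood at 6.31% and 12.8% and Laptm5 at 27.2% and 52.6% of the level in these same reference classes. The reference levels themselves differed, at 3820 and 2970 CPM for Psap, 1105 and 875 CPM for Laptm5 and 9250 and 5175 CPM for Lyz2. These percents therefore do not measure a change between the libraries. Acp5 was at 151 and 112 CPM in B-like cells, the second highest class in both libraries, from 25 and 21 UMIs.

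The Arg1 macrophage-like class was almost absent from Ctrl, and its 20 Ctrl cells, 8 of them with a barcode shared with RES, give little weight to the comparison of libraries within it. Of 28 members, 4 were higher and 6 lower in RES, against 36.4% of all genes called. Psap stood at 4595 CPM in Ctrl and at 2970 CPM in RES (-0.63), Acp5 at 104 and 35.7 CPM from 12 and 302 UMIs (-1.55), Neu1 at 139 and 68.1 CPM (-1.03) and Lgmn at 547 and 575 CPM. With stricter gates Psap was at -0.51, Npc2 at -0.19 and Acp5 at -0.46, and these 3 calls were lost. The class was therefore described within RES, against the C1q class of the same library.

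Arg1 macrophage-like and C1q macrophage-like cells of RES were compared gene by gene. Of 28 members, 3 were higher and 7 lower in the Arg1 class, against 20.9% and 15.5% of all genes, and the median was -0.01 for members and 0.06 for all genes. Both directions together, the members' share was near the background, which was 3070 of 8431 genes. Acp5 showed the widest gap, at 35.7 CPM in Arg1 against 192 CPM in C1q macrophage-like cells (-2.43, -2.76 to -2.08). Ppt1 stood at 62.4 against 180 CPM (-1.53), Man2b1 at 106 against 257 CPM (-1.27), Npc2 at 485 against 883 CPM (-0.87), and Asah1 (-0.72), Hexa (-0.60) and Laptm4a (-0.60) were also lower. Other glycan hydrolases were within 1.5-fold, among them Neu1 (0.36), Glb1 (0.27) and Gusb (0.01). Higher were Gla, alpha-galactosidase, at 28.6 against 9.79 CPM (1.55, 0.30 to 3.18), Mcoln1 at 10.99 against 5.88 CPM from 3 UMIs in the C1q class (0.90, -0.69 to 3.21), and Galns at 19.8 CPM against 0 UMIs, a log2 ratio of at least 1.76 with a floor of 3 UMIs over the C1q class. Acp2 (126 and 119 CPM), Cd68 (278 and 345 CPM) and Lgmn (575 and 441 CPM) were within 1.5-fold.

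**Figure D5:**
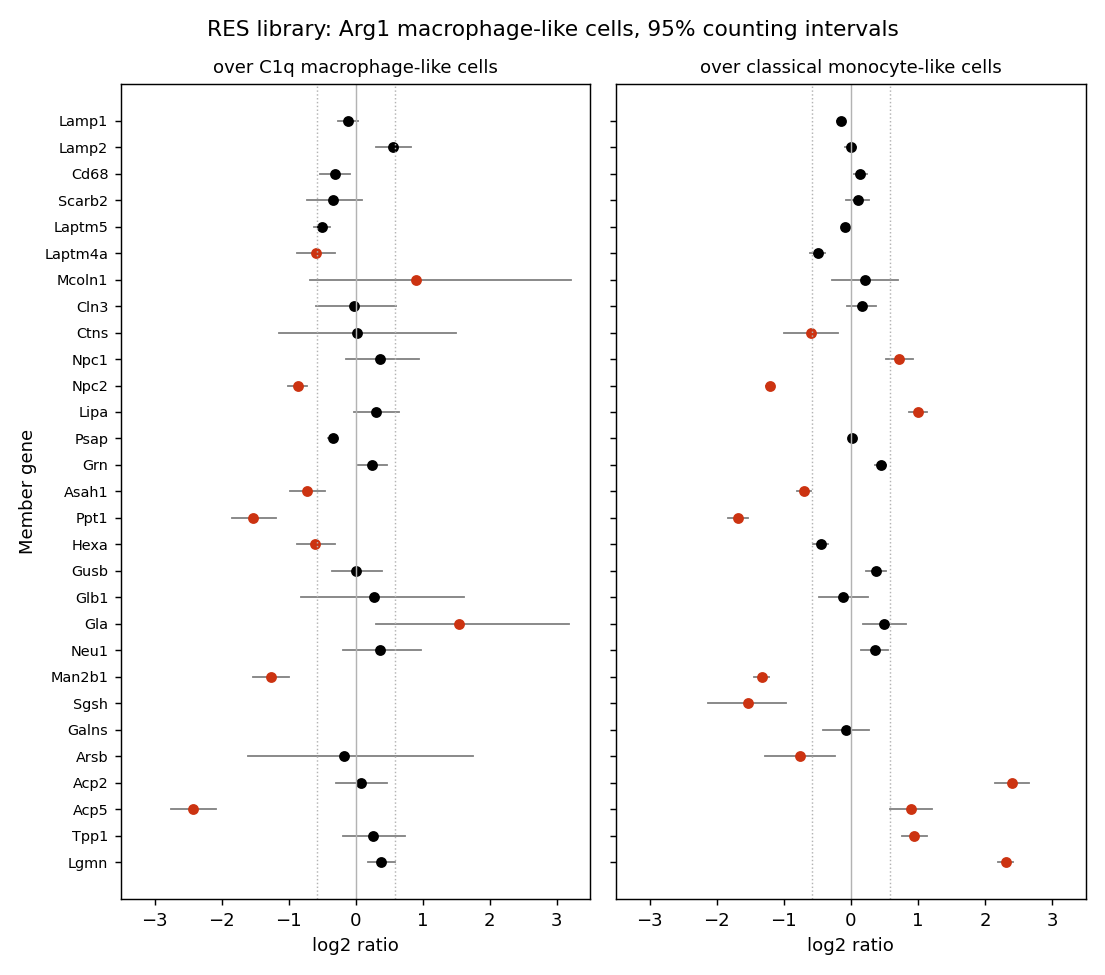
Log2 ratio of RES Arg1 macrophage-like cells over RES C1q macrophage-like and over RES classical monocyte-like cells for each lysosomal gene (points; bars, 95% intervals for counting error alone; red, at least 1.5-fold). Acp5 lies at -2.43 against the C1q class and at 0.90 against classical cells, and Npc2 lies below 0 against both.

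Against RES classical monocyte-like cells, 6 of 29 members were higher in Arg1 macrophage-like cells and 7 lower, beside 20.1% and 17.3% of all genes. Acp2 stood at 126 against 23.8 CPM (2.40, 2.15 to 2.66), Lgmn at 575 against 116 CPM (2.31, 2.19 to 2.42), Lipa at 188 against 94.2 CPM (0.999), Tpp1 at 97.9 against 50.9 CPM (0.95), Acp5 at 35.7 against 19.2 CPM (0.90) and Npc1 at 78.3 against 47.6 CPM (0.72). Lower were Ppt1 (-1.68), Sgsh (-1.54), Man2b1 (-1.33), Npc2 (-1.21), Arsb (-0.75), Asah1 (-0.70) and Ctns (-0.60). This comparison and that with the C1q class rest on the same RES Arg1 cells. Npc2, Ppt1 and Man2b1 were lower than in the C1q class, at least 1.5-fold, under each of the 6 other settings recomputed for that pair. With cells thinned to 2000 UMIs, Gla, Mcoln1, Galns, Asah1 and Laptm4a were no longer called, nor was Acp5 (-2.41), which then had under 50 UMIs. Lamp2 and Neu1 were then called higher and Scarb2 lower, so none of the higher calls was kept. Laptm4a also lost its call with stricter gates, and Laptm4a and Hexa without doublet removal.

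Within the RES Arg1 class, cells with 4 or more C1q UMIs (336 cells) were set against those with fewer (327 cells). Of 28 members, 2 were higher in the C1q-rich cells, Glb1 at 20.2 against 12.1 CPM (0.74, 0.22 to 1.28) and Galns at 23.6 against 15.2 CPM (0.63, 0.16 to 1.12), and 0 were lower, beside 5.4% of all genes. Acp5, Ppt1, Man2b1 and Npc2, which set the Arg1 class apart from the C1q class, were therefore within 1.5-fold between these 2 sets of Arg1 cells.

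Other lysosomal genes were taken from 4 further lists. Of the 16 proton pump genes, whose products acidify the lumen, none of the 13 to 15 tested was called in NK-like, classical, nonclassical, C1q or DC-like cells. Of all genes, 4.19%, 10.7%, 9.75%, 16.4% and 10.6% were called in these classes, in the same order. The ratios of these lists are given without intervals. In classical monocyte-like cells the extremes were Atp6v1a at 102 and 130 CPM (0.35) and Atp6v0c at 8.68 and 6.60 CPM (-0.39). Of the other hydrolases and cofactors, 3 of 11 tested were lower and 0 higher in RES C1q macrophage-like cells. Of all genes there, 359 of 3682 were lower and 246 higher. The median log2 ratio of the list was -0.39 beside -0.02 for the members and 0.01 for all genes. Among the lower genes were Pla2g15, a lysosomal phospholipase, at 67.2 and 37.2 CPM (-0.85), and Galc, which cleaves galactosylceramide, at 59.3 and 35.3 CPM (-0.75). In DC-like cells 1 of 16 was called, against 10.6% of all genes: Manba, beta-mannosidase, at 11.3 and 17.5 CPM (0.63). In NK-like, classical and nonclassical cells 0 of 21, 22 and 19 were, against 4.19%, 10.7% and 9.75%.

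Of 15 other membrane proteins, Slc29a3, a nucleoside transporter, was lower in RES in nonclassical monocyte-like cells (24.6 and 13.1 CPM, -0.91), C1q macrophage-like cells (135.8 and 90.1 CPM, -0.59) and DC-like cells (70.3 and 45.1 CPM, -0.64), and Tmem192 in DC-like cells (30.7 and 20.3 CPM, -0.59). Of 19 sorting and transcription regulators, Igf2r and Sort1, which carry new hydrolases from the Golgi to endosomes, were higher in RES nonclassical monocyte-like cells, at 8.02 and 20.7 CPM (1.37) and at 42.6 and 73.6 CPM (0.79). Gnptg, a subunit of the enzyme that makes the mannose 6-phosphate sorting tag, stood at 6.36 and 11.3 CPM in classical monocyte-like cells (0.82). Tfeb itself stood at 49.2 and 33.8 CPM in classical monocyte-like cells (-0.54), within 1.5-fold, and at 58.0 and 37.2 CPM in C1q macrophage-like cells (-0.64). In the latter class Lamtor3, part of the lysosomal scaffold for mTORC1, stood at 43.5 and 88.1 CPM (1.02). Of the membrane proteins tested, 1 of 12 was called in nonclassical, 1 of 6 in C1q and 2 of 9 in DC-like cells. Of the regulators, 1 of 17 was called in classical and 2 of 16 in nonclassical cells, and in the C1q class 1 of 10 was higher and 1 lower. The shares of all genes were 10.7% in classical, 9.75% in nonclassical, 16.4% in C1q and 10.6% in DC-like cells.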

How the data were processed

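The 2 libraries, 10x 3′ single-cell libraries of pooled mice were used. The deposited files hold raw UMI counts per gene and barcode; per the file headers they come from Cell Ranger 3.1.0, and per the submitters' processing notes from bcl2fastq and build mm10. The deposited gene and barcode lists gave the other values (names). Members and lists were chosen with earlier results of these data known.

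Barcodes under 200 detected genes or over 10% mitochondrial UMIs were left out (245 Ctrl and 121 RES), and the highest Scrublet scores (scanpy 1.11.5), at 0.8% per 1000 barcodes, were removed as doublets (109 and 146). Gates were counts of marker UMIs: NK 8 or more, B 6, DC 4, monocytes and macrophages 5 of Lyz2 and Csf1r, with C1q 4 or more (Arg1 and Spp1 under 3), Arg1 and Spp1 3 or more, classical or nonclassical 6 or more and at least 2 times the other set, and with limits on other lineages' markers. UMIs were summed per class and divided by the class total. Intervals are 95% exact Poisson, conditional binomial or Clopper-Pearson (scipy 1.17.1). Scripts were tested on simulated data. Within-gene shares used cells thinned to 1000 UMIs. Gene positions are from GENCODE (GRCm38), promoters from RefSeq (GRCm38.p6). Of each other list the 2 highest and 2 lowest ratios per class could be named; Galc falls outside that rule and was named after its values were seen.

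Overlapping genes (Glb1 with Tmppe on the same strand; Lamp1, Hexa, Grn, Npc1, Acp2, Ppt1, Cln3, Sgsh and Galns with genes on the other strand) could share reads. The alternatives were stricter gates, median-of-ratios scaling, thinning to 2000 UMIs, 5% mitochondrial UMIs, no doublet removal and 200 UMIs; leaving out shared barcodes and interferon-state cells were added after seeing the data. A result that needs a withheld item is not reported here.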

Additional observations from a re-analysis of the deposited data

Results flagged for a closer look

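Acp2 differed between the libraries in opposite directions in the 2 monocyte-like classes: the log2 ratio of RES over Ctrl was -1.32 in classical and 1.16 in nonclassical monocyte-like cells. With 1 library per group, the difference between the classes was not tested. The direction in each class was the same under all 8 alternatives, from -1.34 to -0.58 in classical and from 1.12 to 1.71 in nonclassical monocyte-like cells.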

How the results depend on the processing

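Of the recomputed counts of called members in the 6 classes other than Arg1, 31 stayed within 1.5 times the main count and 15 did not. Stricter gates gave 2 in classical monocyte-like cells (Acp2 and Acp5). Median-of-ratios scaling gave 1 in NK-like cells (Mcoln1) and 2 in C1q macrophage-like cells (Tpp1, Lipa). Thinning to 2000 UMIs gave 1 in NK-like cells (Grn), 2 in classical (Lgmn, Lipa, Acp2 no longer among them), 3 in C1q macrophage-like and 0 in DC-like cells. A limit of 5% mitochondrial UMIs gave 2 in classical, 1 in DC-like and 1 in B-like cells. A minimum of 200 UMIs gave 0 in C1q macrophage-like, 1 in DC-like and 0 in B-like cells, where none was left to test. Without shared barcodes DC-like cells gave 1 (Lgmn), and without interferon-state cells classical monocyte-like cells gave 2 (Glb1, Acp2). In C1q macrophage-like cells the 1 call was Lipa, not Tpp1, with stricter gates and without interferon-state cells. Of 101 recomputed ratios of the 13 called pairs of gene and class whose interval excluded equality, 5 of these pairs in the Arg1 class, 14 were under 1.5-fold and 1 reversed: Psap in B-like cells was -0.13 with 5% mitochondrial UMIs. The causes were not tested. No paired analysis was possible because each group is 1 library. Depth limits the C1q and B-like classes, where 7 and 27 members had under 50 UMIs.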
